A study of Mus musculus with 4 samples.

Results

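The 60 genes described here encode the machinery that makes ribosomes: RNA polymerase I and its cofactors, and the assembly factors of the small and the large ribosomal subunit. They were taken from a list of gene symbols, matched to the array's annotation, and each represented by its brightest probe set, that of the highest mean of the 4 arrays. Of the 60, 55 had a named probe set, against 12393 named genes in all. The 5 without one were Utp14a, Utp15, Wdr3, Nob1 and Nat10, all small-subunit factors, and they are not analysed here. The floor was the median of all values, 7.53 on the log2 scale, and a gene counted as measured when its highest value over the 4 arrays reached it. That left 52 measured members among 7179 measured genes. Polr1b, Rrp12 and Mdn1 stayed below the floor. By role, 10 of 11 genes of RNA polymerase I and rDNA transcription, 22 of 28 small-subunit factors and 20 of 21 large-subunit factors were measured.

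The RNA came from mouse embryonic fibroblasts, cells of connective tissue taken from embryos into culture, of the strain the labels call C57/BJ6. One genotype label is Npm1+/+ (wild type) and the other Npm1+/- (heterozygote), in which 1 copy of the gene for the nucleolar protein nucleophosmin is deleted. For each genotype there was 1 array of total RNA and 1 of ribosome-bound RNA from a sucrose gradient, called polysome RNA here. The series asks whether the choice of translated RNAs changes when Npm1 is lost. The age of the embryos, the number of embryos or cultures behind each array and the part of Npm1 that is deleted are not given in the sources used here. Each group is a single array, so no value below has a replicate error or a p-value. In RNA of whole cultures, fewer cells of a type and less RNA per cell cannot be told apart.

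RNA polymerase I transcribes the tandem rRNA genes in the nucleolus into a long precursor. The small-subunit processome, a large particle built around the U3 small nucleolar RNA, folds and cuts the part that becomes the small subunit, while a separate chain of assembly factors matures the large subunit before both are exported. Growing fibroblasts spend much of their transcription on this pathway, and many of its genes are known targets of the transcription factor Myc.

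The array medians lay between 7.47 and 7.59. The 11 fibroblast markers were all measured, with a mean of 11.68 to 12.19 per array. Between genotype labels 2 of these 11 were above 0 in each RNA, with medians of -0.17 in total and -0.18 in polysome RNA, and their part in the differences of the members was not tested. All 5 epithelial markers (Epcam, Cdh1, Krt8, Krt18 and Cldn4) and 4 of 5 endothelial markers (Pecam1, Cdh5, Tek and Emcn) were below the floor. The mean of 14 macrophage markers, of which 9 were measured, was 6.36 and 6.62 in the total libraries (wild-type and heterozygote label). It was 7.38 and 7.62 in the polysome libraries. For polysome minus total RNA the 9 had medians of 1.59 and 1.53, where the median gene was at 0.14 and 0.07. Several of the 9, such as C1qb and Ctss, reached the floor only in polysome RNA. The floor thus favours markers that are higher there, and over all 14 markers the medians were 0.66 and 0.57. By 1.5-fold or more 7 and 6 of the 9 measured markers were higher, against 3.65% and 2.24% of measured genes, with the same limit. Between genotype labels their medians were 0.25 in total and 0.27 in polysome RNA, with 9 and 7 above 0. The part of these markers in the differences between RNA labels and between genotype labels was not tested. The level of Npm1 gave no check of the genotype labels. Its difference between them was 0.05 in total and -0.09 in polysome RNA at the brighter probe set, and 0.07 and 0.06 at the other, so directions below are given between libraries by their label.

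A difference is counted here when it reached 1.5-fold, which is 0.58 on the log2 scale, with 2-fold beside it. The measure of technical spread is the disagreement between probe sets of the same gene. Over 2700 genes its SD was 0.32 for the difference between genotype labels in total RNA and 0.28 in polysome RNA. It was 0.28 and 0.24 between the RNA labels under the wild-type and the heterozygote label. All levels and differences below are log2 values, and levels are not read as amounts of 1 gene against another, because probe sets differ in brightness. The level serves only as a guide to signal over background.

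In total RNA, 7 of the 52 measured members were lower by 1.5-fold or more under the heterozygote label, and 0 were that much higher. They were Ftsj3, Heatr1, Utp20, Mybbp1a, Polr1a, Gnl2 and Ddx21. Over all measured genes 6.23% were lower and 7.42% higher by this amount. At the probe set used, none of the members reached 2-fold, which 1.49% of measured genes did downward and 0.237% upward. The median member differed by -0.08 where the median gene differed by 0.19, and 37 of the 52 members lay below that median gene. Members spread from -0.94 (Ftsj3) to 0.58 (Brix1), so the group held genes on both sides of 0 (28 below and 24 above, where 33.6% of all measured genes were below).

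In polysome RNA, 9 of 52 members were lower by 1.5-fold or more under the heterozygote label and again 0 were that much higher. Mybbp1a, Polr1a, Heatr1, Bms1, Gnl2, Tbl3, Ddx10, Utp20 and Ftsj3 made up this count, the last 3 and Tbl3 with differences of only -0.59 to -0.62. The shares over all measured genes were 5.86% lower and 2.08% higher, and 1.17% and 0.0836% at 2-fold, which no member reached at the probe set used. The median member differed by -0.18 and the median gene by 0.11. Of the members, 38 lay below the median gene.

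The comparisons in total and in polysome RNA share no array, though the libraries of a genotype may come from 1 culture, which the labels do not say. Polr1a, Mybbp1a, Heatr1, Utp20, Ftsj3 and Gnl2 were past 1.5-fold lower in both. They are 6 of the 52 members, where 340 of the 7179 measured genes were that much lower in both. Across the 52 members the pair of differences had a Pearson r of 0.94 and a Spearman rho of 0.95, against 0.91 and 0.88 over all measured genes. These describe the agreement of genes on the same arrays and carry no p. Opposite signs in total and polysome RNA were found in 5 of the 52 members (Tcof1, Utp3, Emg1, Ddx56 and Nmd3) and in 871 of the 7179 measured genes. For each of these 5 members the difference in total RNA was smaller than the spread between probe sets.

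**Figure D1:**
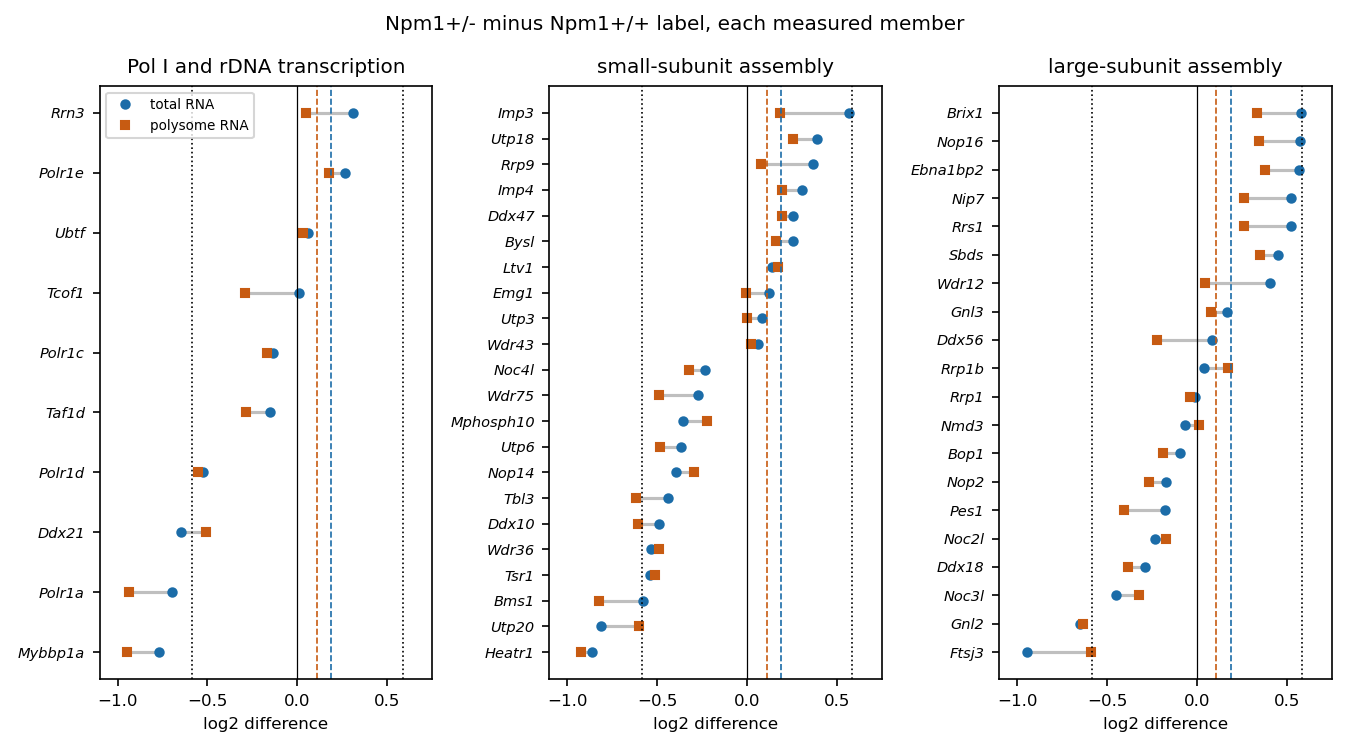
Difference between genotype labels (Npm1+/- minus Npm1+/+, log2) for each of the 52 measured members, in total RNA (circles) and polysome RNA (squares), 1 array per group; dotted lines mark 1.5-fold and dashed lines the median measured gene (0.19 in total and 0.11 in polysome RNA). The lowest members pass the left dotted line in each panel, and none passes the right one.

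Because the median gene was itself above 0, differences were also taken relative to it. On that scale 14 members were lower and 0 higher in total RNA (11.3% and 1.37% of measured genes), and 15 lower and 0 higher in polysome RNA (8.29% and 0.85%). In total RNA the 7 genes above were joined by Bms1, Tsr1, Wdr36, Polr1d, Ddx10, Noc3l and Tbl3. In polysome RNA the 9 were joined by Polr1d, Tsr1, Ddx21, Wdr75, Wdr36 and Utp6.

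Of the 7 members past 1.5-fold in total RNA, 6 had a mean level below 9.33, the 75th percentile of all values. Of the members, 26 lay under that level, and their median difference was -0.36 in total RNA. Genes of the same level range had a median of 0.12, and 21 of the 26 members lay below it. Of the genes of that range 5.76% were past 1.5-fold lower. The other 26 members had a median of 0.10 against 0.23 for genes of their level, with 1 past 1.5-fold and 16 below that median. Among genes of their level 6.71% were past 1.5-fold lower. In polysome RNA the medians were -0.37 for the dimmer and 0.03 for the brighter members, against 0.06 and 0.15 for genes of the same levels. Past 1.5-fold lower there were 8 of the dimmer and 1 of the brighter members, against 5.23% and 6.52% of genes of these levels.

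**Figure D2:**
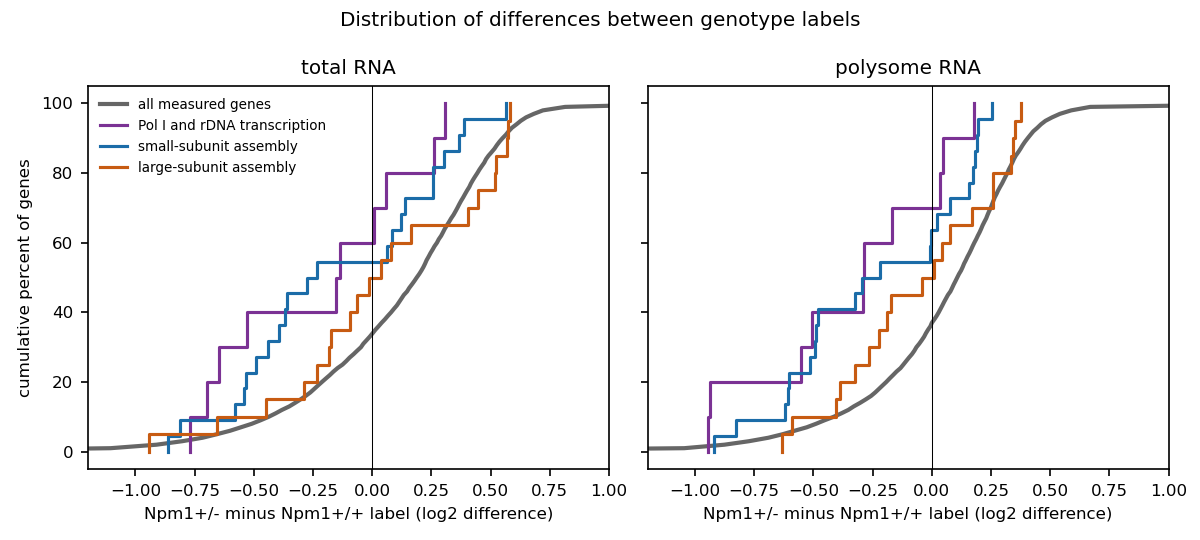
Cumulative percent of genes (vertical axis) by difference between genotype labels (Npm1+/- minus Npm1+/+, log2), in total RNA (left) and polysome RNA (right), for all 7179 measured genes and for the 10 genes of RNA polymerase I and rDNA transcription, the 22 small-subunit factors and the 20 large-subunit factors. The curves of the first 2 roles run to the left of that of all genes over most of their range. In total RNA the curve of the large-subunit factors crosses that of all genes in its upper part. In polysome RNA it runs to the left over most of its range too.

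Genes of RNA polymerase I and rDNA transcription had a median difference of -0.14 in total and -0.29 in polysome RNA, with 3 and 2 of 10 past 1.5-fold lower. Over all measured genes 6.23% and 5.86% were that much lower. Mybbp1a and Ddx21 were marked as having more than 1 role. Without them the medians were -0.06 and -0.23 on 8 genes, and of the genes past 1.5-fold only Polr1a was left. Polr1a encodes the largest subunit of the enzyme. In total RNA it read 8.31 under the wild-type label and 7.61 under the heterozygote label, and in polysome RNA 8.66 and 7.72. These values are 1.62-fold lower in total and 1.91-fold lower in polysome RNA (differences of -0.70 and -0.94). Its other 2 probe sets gave -0.66 and -0.68 in total RNA, and -0.39 and -0.88 in polysome RNA, so all 3 lay on the same side.

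Mybbp1a encodes a Myb-binding nucleolar protein that takes part in rRNA synthesis and processing. Its levels were 9.89 and 9.12 in total RNA (wild-type then heterozygote label) and 10.41 and 9.47 in polysome RNA, or 1.71-fold and 1.93-fold lower. The second probe set gave larger differences, -1.57 and -1.58, which are past 2-fold. The size of the difference for Mybbp1a therefore depends on the probe set, by 0.80 in total RNA, the largest such gap among the 19 members with a second measured probe set.

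Ddx21, an RNA helicase that associates with RNA polymerase I genes and small nucleolar RNAs, read 9.37 and 8.73 in total RNA and 9.48 and 8.98 in polysome RNA. It was 1.56-fold lower in total RNA and, at -0.51, short of 1.5-fold in polysome RNA. The second probe set gave -0.82 and -0.80. Polr1d, a subunit shared with RNA polymerase III, was short of the count at its brighter probe set, at 10.88 and 10.35 in total RNA (-0.53) and 10.89 and 10.34 in polysome RNA (-0.55). Its other probe set gave -0.63 and -1.01.

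The remaining factors of rDNA transcription were closer to 0. Polr1c, the other subunit shared with RNA polymerase III, was at -0.13 and -0.17 in total and polysome RNA. Polr1e, a subunit of the enzyme's own heterodimer, was at 0.26 and 0.18. Taf1d, part of the promoter selectivity complex, was at -0.15 and -0.29, and Tcof1 (treacle), a nucleolar scaffold for rDNA transcription, at 0.01 and -0.29. Rrn3, which carries the polymerase to the promoter, read 8.37 and 8.68 in total RNA (0.31) and 8.64 and 8.68 in polysome RNA (0.05). All of these were near or within the SD between probe sets.

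Ubtf encodes the upstream binding factor that keeps active rRNA genes open. Its brighter probe set gave 9.43 and 9.49 in total RNA and 9.46 and 9.50 in polysome RNA, differences of 0.06 and 0.03. The dimmer probe set gave -0.46 and -0.34, so the sign for Ubtf depends on the probe set. Polr1b, the second largest subunit, stayed below the floor on all 4 arrays, at 7.22 and 6.85 in total RNA and 7.28 and 6.88 in polysome RNA.

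**Figure D3:**
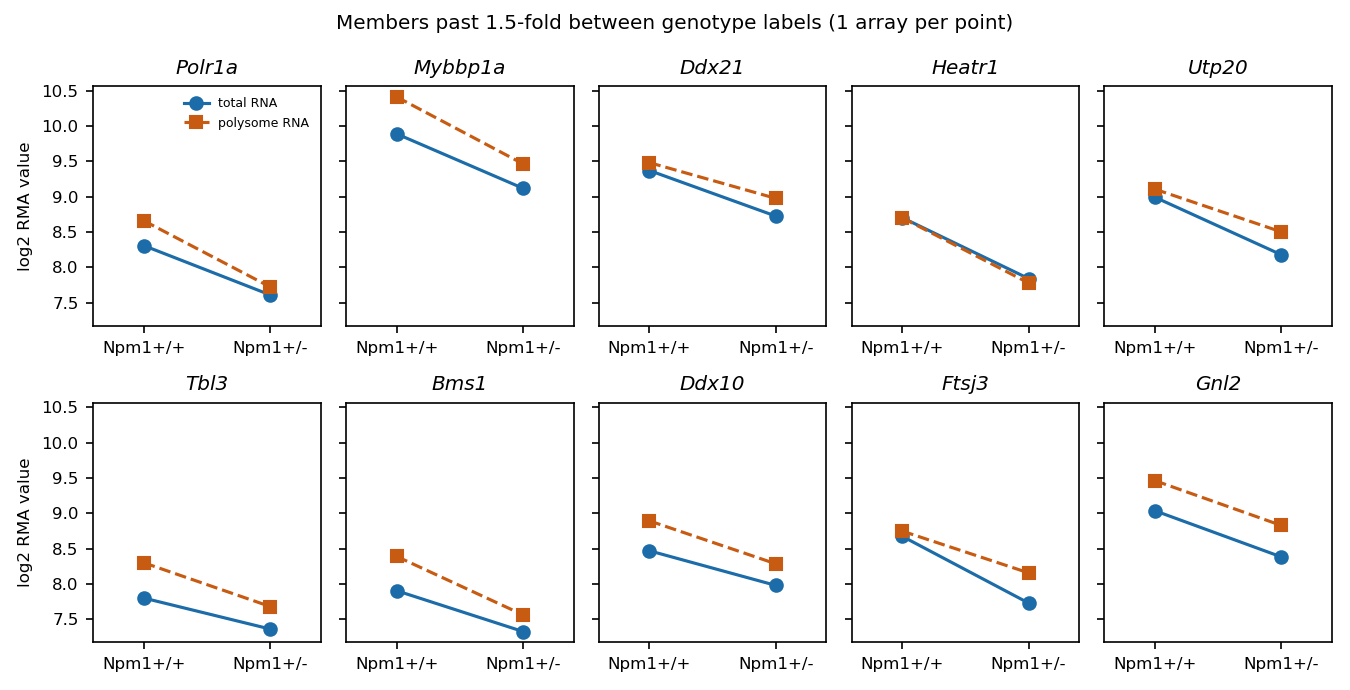
Level (log2 RMA value) of the 10 members past 1.5-fold between genotype labels in total or polysome RNA, in the Npm1+/+ and Npm1+/- libraries of total RNA (circles, solid lines) and polysome RNA (squares, dashed lines); each point is 1 array. In all panels both lines descend from the wild-type to the heterozygote label, for example from 8.70 to 7.84 for Heatr1 in total RNA.

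Small-subunit factors had a median difference of -0.26 in both total and polysome RNA, with 2 and 5 of 22 past 1.5-fold lower. These are 9.09% and 22.7% of the role, against 6.23% and 5.86% of all measured genes. In each RNA, 16 of the 22 lay below the median gene. Heatr1 and Utp20 are long repeat proteins of the processome, Heatr1 also being tied to rDNA transcription. Heatr1 read 8.70 and 7.84 in total RNA (wild-type then heterozygote label) and 8.70 and 7.78 in polysome RNA, which is 1.82-fold and 1.89-fold lower. Its second probe set, below the floor, gave -0.50 and -1.07. Utp20 read 8.99 and 8.18, then 9.11 and 8.50, or 1.76-fold and 1.52-fold lower. Rrp12, a repeat protein of late small-subunit maturation, showed differences of -0.82 and -0.76 but stayed below the floor (6.98 and 6.16, then 7.41 and 6.64), so its size is uncertain and it is in no count.

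Bms1, a GTPase of the processome, read 7.90 and 7.33 in total RNA and 8.39 and 7.56 in polysome RNA. It was short of the count in total RNA at -0.58 and 1.77-fold lower in polysome RNA. Tbl3, a subunit of the U3-associated complex, read 7.80 and 7.36, then 8.30 and 7.68, or 1.54-fold lower in polysome RNA. The helicase gene Ddx10 read 8.47 and 7.98, then 8.89 and 8.28, or 1.52-fold lower in polysome RNA, with -0.80 at its second probe set. In these 3 genes the wild-type library was the higher one in both RNAs. Under the heterozygote label Bms1 and Tbl3 were below the floor of 7.53 in total RNA, and Bms1 was close to it in polysome RNA. The sizes of these differences are therefore uncertain.

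Several other processome genes fell short of 1.5-fold in both RNAs. Tsr1, a GTPase-like factor of late small-subunit maturation, was at -0.54 and -0.52 in total and polysome RNA. Wdr36 was at -0.53 and -0.49, with -0.44 and -0.41 at its second probe set. Utp6 was at -0.37 and -0.48, and its 3 probe sets ranged from -0.37 to -0.31 in total RNA. Nop14 (-0.39 and -0.30), Wdr75 (-0.28 and -0.49) and Noc4l (-0.23 and -0.32) also lay below 0 in both.

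The Mphosph10 complex, whose 3 proteins bind the U3 RNA to its precursor, had members on both sides of 0. Mphosph10 was at -0.36 in total and -0.22 in polysome RNA. Imp3 read 9.87 and 10.43 in total RNA, just short of 1.5-fold higher at 0.57, and 10.33 and 10.51 in polysome RNA, at 0.18. Imp4 was at 0.30 and 0.19.

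Above 0 in total RNA there were also Utp18 (0.39), Rrp9 (0.36), a protein of the U3 particle, the helicase gene Ddx47 (0.26), Bysl (0.25), the export factor gene Ltv1 (0.14), the methyltransferase gene Emg1 (0.12), Utp3 (0.08) and Wdr43 (0.06). In polysome RNA these 8 lay between -0.01 (Emg1) and 0.25 (Utp18). None reached 1.5-fold at the probe set used. The second probe set of Bysl gave 0.62 in total RNA, which is past 1.5-fold higher, and 0.16 in polysome RNA.

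Large-subunit factors had medians of 0.01 in total and -0.02 in polysome RNA, where the median gene was at 0.19 and 0.11. In each RNA 10 of 20 lay on either side of 0, and 13 of 20 lay below the median gene. Past 1.5-fold lower were 2 of 20 in each (10.0%), against 6.23% and 5.86% of all measured genes. Ftsj3, an rRNA methyltransferase that adds a methyl group to ribose without a guide RNA, had the lowest value of all members in total RNA. It read 8.67 and 7.73 in total RNA and 8.75 and 8.16 in polysome RNA, which is 1.92-fold and 1.51-fold lower, and it has 1 probe set. Gnl2, a nucleolar GTPase of large-subunit export, read 9.03 and 8.38, then 9.46 and 8.83, or 1.57-fold and 1.55-fold lower. Its 2 dimmer probe sets, below the floor, gave -0.76 and -0.39 in total RNA. Noc3l came next, at -0.45 and -0.33, and Ddx18 was at -0.29 and -0.39. Mdn1, the large ATPase that strips factors from the particle, was below the floor at 7.29 and 7.02 in total RNA and 7.41 and 7.08 in polysome RNA.

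The upper end of the large-subunit group fell just short of the count in total RNA. Brix1, an early large-subunit assembly factor that works with Ebna1bp2, read 10.15 and 10.73 (0.58), and its dimmer probe set gave 0.71. Nop16 read 9.05 and 9.62 (0.57). Ebna1bp2 read 9.68 and 10.25 (0.57), but its second probe set gave -0.12, so its sign depends on the probe set. Rrs1, which with Rpf2 docks the particle of the smallest large-subunit rRNA, read 9.31 and 9.83 (0.52), and Nip7 read 8.98 and 9.50 (0.52). Sbds, which frees the joining factor from the new large subunit, read 10.08 and 10.52 (0.45). In polysome RNA these 6 lay between 0.26 and 0.38, each smaller than in total RNA.

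The complex of Pes1, Bop1 and Wdr12, needed to cut the spacer inside the large-subunit precursor, spread over 0. Pes1 read 8.62 and 8.44 in total RNA (-0.18) and 9.12 and 8.72 in polysome RNA (-0.41). Bop1 was at -0.09 and -0.19, while Wdr12 was at 0.40 and 0.04. The base methyltransferase gene Nop2 was at -0.17 and -0.27, Noc2l at -0.23 and -0.17, the nucleostemin gene Gnl3 at 0.16 and 0.08, and the export adaptor gene Nmd3 at -0.06 and 0.01. The helicase gene Ddx56 was at 0.08 and -0.22, Rrp1 at -0.01 and -0.04 and Rrp1b at 0.04 and 0.17. All of these lay inside 1.5-fold.

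**Figure D4:**
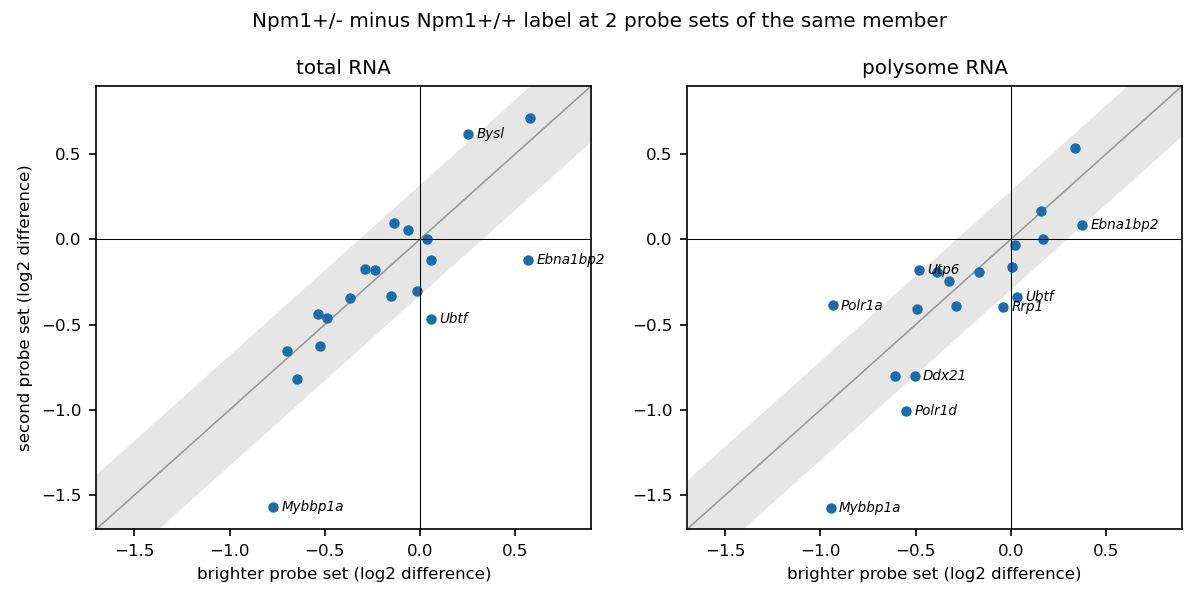
Difference between genotype labels (Npm1+/- minus Npm1+/+, log2) at the brighter (horizontal) and the second probe set (vertical) of the 19 members with at least 2 measured probe sets, in total RNA (left) and polysome RNA (right); the grey band is 1 SD of the disagreement over 2700 genes (0.32 and 0.28) and members outside it are named. Mybbp1a lies farthest below the diagonal in both panels, and most members lie inside the band.

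Over the 19 members with a second measured probe set, the median absolute disagreement was 0.13 in total and 0.20 in polysome RNA, and its SD was 0.30 and 0.29. The sign was opposite in 5 of them in total RNA (Polr1c, Ubtf, Wdr43, Ebna1bp2 and Nmd3) and in 3 in polysome RNA (Ubtf, Wdr43 and Nmd3). Of the members past 1.5-fold, Polr1a, Mybbp1a, Ddx21 and Ddx10 had a second measured probe set, and each of these was below 0 in both RNAs. Utp20, Bms1, Tbl3 and Ftsj3 rest on 1 probe set each.

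Other genes of the pathway were taken from a list of 83, of which 60 were measured. In total RNA 3 of them were past 1.5-fold lower, namely Exosc10 (-0.72), a nuclease of the RNA exosome, Las1l (-0.68), which cuts the large-subunit precursor, and Nvl (-0.59), a large-subunit ATPase. Another 3 were that much higher, Surf6 (0.79), Exosc4 (0.72) and Rrp36 (0.64). Over all measured genes 6.23% were lower and 7.42% higher in total RNA, so neither count was a larger share than that of all genes. The list's median was 0.13, near that of all genes. In polysome RNA the same 3 genes were lower (Nvl at -0.81, Las1l at -0.75 and Exosc10 at -0.61), while 0 were higher, and the median was 0.02. Over all measured genes 5.86% were lower and 2.08% higher there.

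Myc, which drives many of these genes, read 9.84 and 9.99 in total RNA and 10.09 and 10.21 in polysome RNA, differences of 0.15 and 0.12. Its partner Max was at -0.35 and -0.53. Of 8 measured genes of the Myc network 1, Mycl (0.62, from 6.86 to 7.48), was past 1.5-fold in total RNA and 0 in polysome RNA. Over all measured genes 7.42% and 2.08% were that much higher. Both total RNA values of Mycl are below the floor of 7.53, so the size of its difference is uncertain. Of 9 measured proliferation genes, 4 were past 1.5-fold lower in total RNA (Top2a at -1.12, Mcm4 at -0.85, Mcm3 at -0.82 and Mcm7 at -0.62), 3 in polysome RNA, and the medians were -0.52 and -0.55. Over all genes 6.23% and 5.86% were that much lower. Pcna, the sliding clamp of DNA replication, was at 0.37 and 0.26. The part of the proliferation genes in the differences of the members was not tested. The array's control probe sets for the ends of a transcript gave a 3-prime minus 5-prime difference of 0.01 to 0.06 for beta-actin and -0.09 to 0.12 for Gapdh over the 4 arrays, and 1.47 to 1.72 for transferrin receptor. For pyruvate carboxylase it was 0.49 and 0.27 in total and 0.25 and 0.11 in polysome RNA (wild-type, then heterozygote label). The part of these differences in the results was not tested.

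The comparison between RNA labels concerns which of these mRNAs were held on ribosomes. No member was past 1.5-fold under either genotype label, where 3.65% of measured genes were higher and 1.56% lower in the polysome library under the wild-type label, and 2.24% and 1.35% under the heterozygote label. The median member differed by 0.18 and 0.11 (polysome minus total, wild-type then heterozygote label), and the median gene by 0.14 and 0.07. Of the 52 members 48 and 39 lay above 0, and over all genes 75.6% and 65.1% did. Relative to the median gene, 30 and 33 of the 52 lay above.

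Mybbp1a had the largest difference under the wild-type label, from 9.89 in total to 10.41 in polysome RNA (0.52), and was at 0.35 under the heterozygote label. Pes1 (0.51 and 0.28), Tbl3 (0.50 and 0.32), Bms1 (0.49 and 0.24) and Ddx56 (0.47 and 0.17) followed. Under the heterozygote label Nop14 led, from 8.27 to 8.79 (0.52, and 0.43 under the wild-type label), with Gnl2 (0.45 and 0.43) and Ftsj3 (0.43 and 0.07) next. Under the heterozygote label Wdr12 was lowest (-0.18, and 0.18 under the wild-type label), and Bysl was at -0.14 (-0.05 under the wild-type label). The second probe set of Bysl gave 0.02 under the heterozygote and 0.48 under the wild-type label. The dimmer probe set of Wdr12, below the floor, gave 0.56 and 0.19. Also at the lower end stood Noc2l (-0.22 under the wild-type and -0.15 under the heterozygote label) and Wdr36 (-0.17 and -0.13), although the second probe set of Wdr36 gave 0.31 and 0.34. At the probe sets used, Nop14 and Gnl2 were thus near the upper end and Noc2l and Wdr36 near the lower end under both labels. Of the 19 members with a second measured probe set, 7 had opposite signs under the wild-type and 6 under the heterozygote label.

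**Figure D5:**
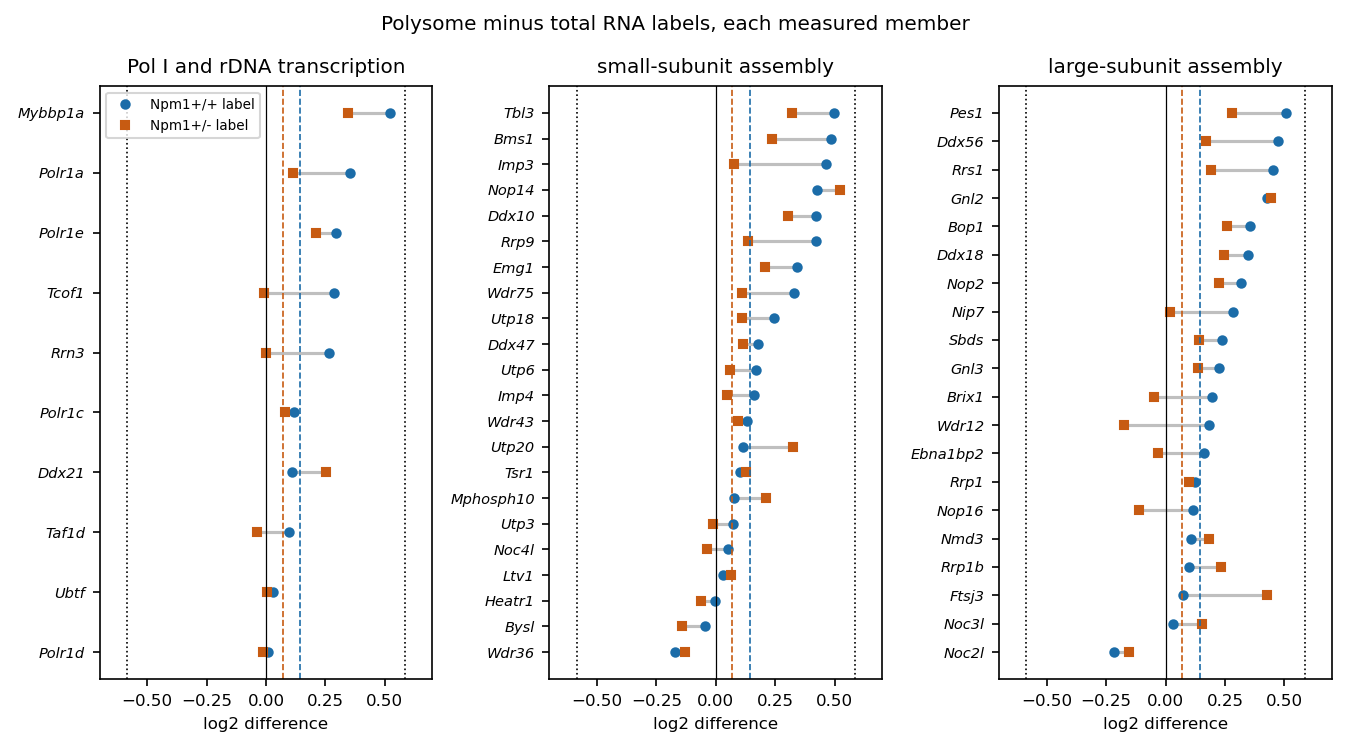
Difference between RNA labels (polysome minus total, log2) for each of the 52 measured members under the Npm1+/+ label (circles) and the Npm1+/- label (squares), 1 array per group; dotted lines mark 1.5-fold and dashed lines the median measured gene (0.14 and 0.07). All points lie between the dotted lines, and most lie above 0.

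By role, the medians under the wild-type and heterozygote labels were 0.19 and 0.04 for RNA polymerase I and rDNA transcription, 0.17 and 0.11 for small-subunit factors and 0.21 and 0.16 for large-subunit factors. Across members the differences under the 2 genotype labels, which share no array, had a Pearson r of 0.59 and a Spearman rho of 0.55, against 0.81 and 0.68 over all genes. The 9 members with opposite signs (Polr1d, Taf1d, Tcof1, Noc4l, Utp3, Wdr12, Nop16, Ebna1bp2 and Brix1) lay between -0.18 and 0.29. Over all measured genes 1749 of 7179 had opposite signs.

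The association difference is the polysome minus total difference under the heterozygote label minus that under the wild-type label, and uses all 4 arrays. Again no member was past 1.5-fold, which 0.306% of measured genes were in either direction. The median member was at -0.10 and the median gene at -0.07, with 39 of 52 members below 0 against 67.1% of all genes. The SD between probe sets was 0.22 for this measure, and 6 of the 19 members with a second measured probe set had opposite signs. Imp3 (-0.38), Wdr12 (-0.36), Ddx56 (-0.30) and Tcof1 (-0.30) were lowest, and Ftsj3 (0.35) and Utp20 (0.21) were highest. The dimmer probe set of Wdr12, below the floor, gave 0.36. For Imp3 the difference between RNA labels was 0.46 under the wild-type and 0.08 under the heterozygote label, and for Ftsj3 it was 0.07 and 0.43.

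The bases before each gene's start were searched for CACGTG, the E-box bound by Myc and its partners, which reads the same on both strands. RefSeq promoter entries (GRCm38.p6) were matched for 51 of the 60 members, and the motif lay within the 250 bases before a start in 5 of them, or 9.80%. Of the 5847 measured genes with an entry 10.5% held it, and of all 17492 protein-coding genes 7.61%. The 5 members are shown because they are the only ones of the 51 with the motif in this window. Each is written in the direction of its gene with the motif in capitals.
Rrn3, chr16:13780624-13780683, plus strand: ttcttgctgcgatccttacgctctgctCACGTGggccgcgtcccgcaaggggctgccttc
Rrn3, chr16:13780457-13780516, plus strand: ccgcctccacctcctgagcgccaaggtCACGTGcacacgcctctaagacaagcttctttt
Imp4, chr1:34439681-34439740, plus strand: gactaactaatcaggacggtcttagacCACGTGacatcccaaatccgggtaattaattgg
Utp18, chr11:93885767-93885813, minus strand: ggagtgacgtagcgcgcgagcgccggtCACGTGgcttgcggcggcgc
Nmd3, chr3:69721914-69721973, plus strand: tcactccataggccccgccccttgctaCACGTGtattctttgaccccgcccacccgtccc
Nop2, chr6:125131796-125131855, plus strand: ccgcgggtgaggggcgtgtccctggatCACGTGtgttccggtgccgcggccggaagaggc

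The motif began 48 and 215 bases before the start of Rrn3, 121 before Imp4, 20 before Utp18, 114 before Nmd3 and 60 before Nop2. None of these 5 genes was past 1.5-fold between genotype labels. In total RNA they were at 0.31 (Rrn3), 0.30 (Imp4), 0.39 (Utp18), -0.06 (Nmd3) and -0.17 (Nop2). A match is a description of these letters only.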

How the data were processed

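The authors deposited 1 table of log2 values with 22690 probe sets and 4 arrays. Per the submitters' processing notes it was made with R 3.4.3, affy 1.56.0 and RMA, which corrects background, normalises between arrays and summarises probes. The settings and the genome build are not given in the sources used here. Groups were taken from the sample titles. Probe sets were named from the platform annotation where it gives 1 symbol, and the 64 manufacturer controls were left out.

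From these values, differences of log2 values were computed for 5 comparisons with Python 3.11.15 and pandas 2.3.3. No test was made with 1 array per group, since the total and polysome arrays of a label are different RNAs and not replicates. Calls were made at 1.5-fold, with 2-fold beside them, and read against the share of all measured genes. The members and lists were chosen with earlier results of these data known. Members were named with values if past 1.5-fold or among the 3 largest each way in a role, and the others briefly. The calculation was tested on simulated data. Detection calls were not used, so the level is the guide to signal over background, and precision is limited by the number of arrays. Protein lengths were not used here.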

Additional observations from a re-analysis of the deposited data

How the results depend on the processing

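No paired analysis was possible because the labels carry no replicate numbers. A fit of genotype with the RNA label as a block was not run, since both RNAs of a genotype may come from 1 culture. In total RNA the 7 of 52 members called at 1.5-fold became 3 with a floor at the 75th percentile (32 members measured), 11 after quantile normalisation, 12 after a loess trend on level was subtracted and 14 relative to the median gene, all of them lower. The share of all genes lower by 1.5-fold was then 7.60%, 7.77%, 9.88% and 11.3%. When probe sets of a gene were averaged, 6 were lower and 1, Brix1, was higher. In polysome RNA the 9 became 2 with that floor, 14 after the loess trend and 15 relative to the median gene, where 7.15%, 7.94% and 8.29% of all genes were lower. The 2 of 32 members left with that floor (6.25%) were no larger a share than that of all genes. At 2-fold both counts were 0. The values relative to the median gene were added after seeing the data. With the stricter floor the median of the small-subunit factors turned from -0.26 to 0.13 in total and from -0.26 to 0.050 in polysome RNA, and that of RNA polymerase I genes went from -0.14 to -0.53 in total RNA on 5 genes. The floor removes the dimmer members by its own construction. The loess trend moved the median gene from 0.19 to 0.03 in total RNA. The median over all members stayed below 0 in total RNA except with that floor (0.07) and with probe sets ending in _x_at or _s_at left out (0.01), and in polysome RNA except with that floor (0.02). The median of large-subunit factors in total RNA ranged from -0.18 to 0.16. Of the 18 alternative counts between genotype labels, 9 moved by over 1.5 times. The comparisons between RNA labels had 0 members called under each alternative.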
